A study of Mus musculus with 23 samples.

Results

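VQ-D1 and VQ-D4 are donor lines of mouse plasma cell tumour that carry the same engineered genotype, and they were compared here with each other: 4 libraries of VQ-D1 and 4 of VQ-D4, 8 of the 23 RNA-seq libraries of the series. The members were taken by their group label alone. Both lines carry the Vκ*MYC transgene, a Cre-inducible Nras allele with the change Q61R in 1 copy, and the IgG1-Cre transgene, a combination the labels call VQ. The cells are labelled CD138+B220-, the surface phenotype of plasma cells, and were isolated from recipient mice that had been given donor cells of the line. The 4 VQ-D1 libraries, replicates 1 to 4, came from bone marrow, spleen, bone marrow and spleen. The 4 VQ-D4 libraries, replicates 1 to 4, were taken from bone marrow, liver, spleen and, in replicate 4, a lymph node. Values are listed below in that order. The 3 control libraries are CD138+B220- cells from marrow of mice with IgG1-Cre alone, and 12 further libraries of the lines VQ-D2, VQ-D5 and t-VK12653 entered the fit, where they help to estimate the spread and the tissue effects. According to its title, the study sorts VQ myeloma cells into 2 clusters, and both lines were taken here as members of 1 of them. The comparison asks what still differs between a pair of lines that share genotype and cluster.

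Each line descends from 1 donor, so its libraries are repeat samples of 1 tumour, and the names of the deposited tables put libraries of a line in the same recipient. VQ-D1 replicates 1 and 2 share a recipient number, as do replicates 3 and 4, and VQ-D4 replicates 1, 3 and 4 share one. The p-values therefore measure the spread between libraries of a group, pooled over all groups of the fit, and not between tumours of the genotype. The liver library of VQ-D4 is the single liver library of the series, and the tissue term of the fit absorbs it, so it adds to the printed levels, the statements on overlap, the fold bounds and the ratios, and not to the fitted log2 differences. The VQ-D4 side of those differences thus rests on replicates 1, 3 and 4, which share 1 recipient number.

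In Vκ*MYC mice a MYC transgene becomes active in B cells that have passed through the germinal centre, and plasma cell tumours of the marrow follow. IgG1-Cre acts in the same B cell stage and switches on the mutant Nras allele, whose product stays bound to GTP and signals through RAF, MEK and ERK. Myeloma cells live on immunoglobulin secretion and on survival signals from the marrow, among them IL-6 through JAK and STAT proteins and TNF family ligands through NF-kB. Loss of inhibitors of these pathways and gain or loss of whole chromosomes are common in the disease.

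Library totals of the 8 members lay between 3179578 and 10047314 reads, and the ribosomal precursor Rn45s took 17.1% to 21.7% of them. Levels are given as CPM, read counts at a library size of 1000000 after TMM scaling. Sdc1 and Irf4 were high in both lines, while the plasma cell genes Mzb1, Igj and Tnfrsf17, described below, were low in 1 line or both. Sdc1, which encodes CD138, was at 853, 778, 754 and 807 CPM in VQ-D1 and 1285, 764, 1081 and 988 CPM in VQ-D4 and did not pass the test (log2 difference -0.46 ± 0.24 SE, adjusted p = 0.136), while the bone marrow and spleen libraries alone gave a log2 difference of -0.57 with an adjusted p of 0.000749. Irf4, the factor on which plasma cells and myeloma depend, was at 2127, 2186, 2011 and 1909 CPM in VQ-D1 and 2139, 2165, 2602 and 2068 CPM in VQ-D4. The B cell gene Pax5 stood at no more than 0.247 CPM in any of the 8 libraries, against a mean of 15.7 CPM in the controls. Over all tested genes, the log2 CPM of VQ-D1 libraries correlated at a mean r of 0.977 with each other, 0.892 with VQ-D4, 0.876 with t-VK12653, 0.850 with VQ-D2, 0.844 with VQ-D5 and 0.786 with control. VQ-D4 libraries correlated at 0.965 with each other, 0.871 with t-VK12653, 0.847 with VQ-D5, 0.836 with VQ-D2 and 0.778 with control. These are descriptions across genes, which are not independent. For 8 of 8 libraries, the nearest group other than its own line was the other line.

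Of 13987 genes tested, 5355 (38.3%) differed between the lines at an adjusted p under 0.05 by edgeR's quasi-likelihood test with Benjamini-Hochberg adjustment. The split was nearly even, with 2653 genes (19%) higher in VQ-D1 and 2702 (19.3%) higher in VQ-D4. At least 2-fold differences were called for 1249 genes (8.93%) and 1285 genes (9.19%). The levels did not overlap between the 4 and 4 libraries for 2552 genes higher in VQ-D1 (18.2%) and 2467 higher in VQ-D4 (17.6%), and 4174 called genes were free of overlap. The median log2 difference over all tested genes, VQ-D1 minus VQ-D4 as everywhere below, was 0.05.

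Bone marrow and spleen are the tissues that both lines share. The 6 libraries of these tissues alone, 4 of VQ-D1 and 2 of VQ-D4, gave 4816 called genes among 11991 tested (40.2%), 2327 higher in VQ-D1 (19.4%) and 2489 higher in VQ-D4 (20.8%). Of the genes called with all libraries, 5096 were tested in this fit. All 5096 kept their direction, 4408 were called again and 0 were called in the opposite direction. The 6 libraries are part of the first fit and are no independent replicate. Without the VQ-D4 marrow library the first count was 3992 and the count in the shared tissues 2835, the lowest on leaving out any single library.

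Taken 1 tissue at a time, 2942 genes (21%) were called within bone marrow and 2306 (16.5%) within spleen. Of the 5355 called genes, 5309 had the same direction in both tissues. The marrow and spleen libraries are part of the fit that called these genes, so a shared direction is largely built in. A test of the difference itself, spleen minus marrow, called 0 genes (0%) by edgeR at an adjusted p under 0.05, while 647 genes had an unadjusted p under 0.05, and 99 genes were called when the filter on low counts was left out. VQ-D4 has 1 library in each of these tissues.

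**Figure D1:**
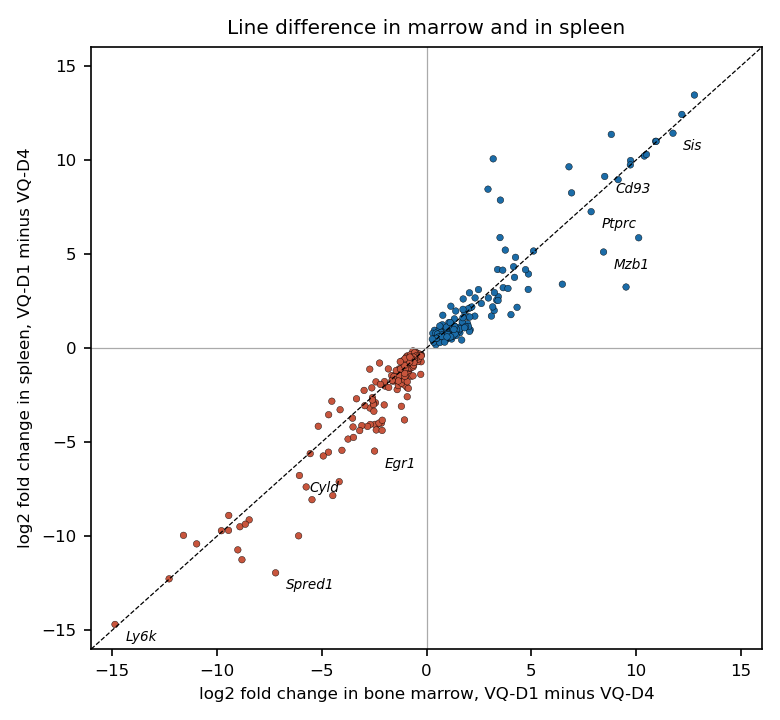
Log2 difference VQ-D1 minus VQ-D4 within bone marrow (horizontal axis) and within spleen (vertical axis) for 298 called genes. They are Myc and the genes given by the rankings described under processing, with a mean of at least 10 CPM in a line. Blue points were higher in VQ-D1 and red points in VQ-D4, and the dashed line marks equal differences. All 298 lie in the quadrants of equal sign, from Ly6k at the lower left to Sis at the upper right. The fit that called them holds the same libraries, so equal signs are no independent check.

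The engineered drivers came first. Nras was at 40.9, 45.98, 36.4 and 46.1 CPM in VQ-D1 and 51.9, 50.8, 48.7 and 52.9 CPM in VQ-D4, so every VQ-D4 library stood above every VQ-D1 library, but the difference did not pass the test (log2 difference -0.25 ± 0.12 SE, 95% confidence interval -0.505 to 0.011, adjusted p = 0.125). The counts do not separate the mutant from the normal allele. Myc was higher in VQ-D4, at 694, 612, 523 and 539.7 CPM in VQ-D1 and 1248, 1241, 1692 and 1322 CPM in VQ-D4 (log2 difference -1.27 ± 0.15 SE, adjusted p = 7.95e-07), and the lowest VQ-D4 library was above the highest VQ-D1 library. Control plasma cells had 43.6 CPM of Myc. The Vκ*MYC transgene carries human MYC, and the labels and headers do not say whether its reads were counted under the mouse symbol. Among 12 tested members of the MYC, MAX and MXD network, Myc and the repressor Mnt (69.2 against 132 CPM) were higher in VQ-D4 and 0 in VQ-D1 (1 without VQ-D1 replicate 4).

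Among regulators that load or unload RAS, Rasgrp3 and Rasgrp1 had large differences of opposite direction. Of 25 tested GTPases, exchange factors and GAPs, 6 were higher in VQ-D1 and 6 in VQ-D4, and these counts were 2 and 3 without the VQ-D4 marrow library, with 3 in VQ-D1 without VQ-D1 replicate 4. Over all tested genes the shares are 19% and 19.3%, so this count, like those of other lists below with shares near these, is no result about the list. Rasgrp3, a diacylglycerol-activated exchange factor that loads RAS with GTP, was at 201, 208, 196 and 204 CPM in VQ-D1 and 1.62, 0.462, 0.654 and 3.22 CPM in VQ-D4 (log2 difference 7.05 ± 0.36 SE, adjusted p = 2.24e-11). Its paralogue Rasgrp1 had the opposite direction at lower levels, 0.987, 0.331, 0.675 and 0.139 CPM in VQ-D1 and 7.34, 30.5, 5.23 and 8.71 CPM in VQ-D4 (log2 difference -3.49 ± 0.61 SE, adjusted p = 0.00013). Both lines thus had 1 exchange factor of this family well above the other line, with Rasgrp3 in VQ-D1 near the control mean of 181 CPM. Rasa4, a calcium-dependent GAP, averaged 18.96 CPM in VQ-D1 and 4.03 CPM in VQ-D4.

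Many of the large differences were of genes near absent in 1 line. Among tested genes, 104 had 0 reads in all 4 VQ-D1 libraries and more than the floor of 3 reads in VQ-D4, and 241 had 0 reads in all 4 VQ-D4 libraries and more than the floor in VQ-D1. That floor corresponds to 0.108 CPM over the VQ-D1 libraries and 0.145 CPM over the VQ-D4 libraries and covers counting error only. For genes at 0 in a line, the fold is given as a bound against the floor over that line. Neighbours named below are the nearest genes on each side with a mean of at least 2 CPM in a line. Their gaps ran from 8.404 kb (Nod2 from Cyld) to 2076 kb (Chd9 from Cyld). A distant neighbour does not show where a difference ends. In bulk RNA, fewer cells that express a gene and less RNA per cell cannot be told apart.

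Ly6k (chr15:74796874-74799968), a GPI-anchored surface protein of the Ly6 family, was at 0 in all 4 VQ-D1 libraries and at 696, 300.1, 618 and 645 CPM in VQ-D4, at least 5205-fold higher. Its neighbours were expressed in both lines, Ly6d at 535 CPM in VQ-D1 and 260 CPM in VQ-D4 and Ly6e at 3005 and 3505 CPM. The Ly6e call (adjusted p = 0.0271) was lost without VQ-D1 replicate 1 or 3 or VQ-D4 replicate 1 or 3 (adjusted p from 0.0665 to 0.197). Pdia5 (chr16:35397308-35490919), a disulfide isomerase of the endoplasmic reticulum, was at 0 in VQ-D1 and at 116, 86.1, 115 and 162 CPM in VQ-D4, at least 1104-fold higher. The adjacent genes did not pass the test, with Sec22a at 13.99 and 11.8 CPM and Sema5b at 2.39 and 3.77 CPM. Tmem18 and Sntg2 are neighbours on chromosome 12, 211.1 kb apart, and both were at 0 in VQ-D1. VQ-D4 had 16.3, 10.3, 19.3 and 29.02 CPM of Tmem18 and 8.21, 8.32, 13.1 and 29.3 CPM of Sntg2, bounds of at least 173-fold and 136-fold, while Acp1 on the other side of Tmem18 was at 9.65 and 11.8 CPM.

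Several tumour suppressors and inhibitors belonged to the genes near absent in VQ-D1. Cyld (chr8:88696878-88751946), the deubiquitinase that restrains NF-kB and is recurrently lost in human myeloma, was at 3.45, 1.65, 2.22 and 1.11 CPM in VQ-D1 and 177, 194, 152 and 169.6 CPM in VQ-D4 (log2 difference -6.34 ± 0.21 SE, adjusted p = 4.95e-15). The next gene, Nod2, 8.40 kb away, was also lower in VQ-D1 (7.21 against 36.4 CPM). Chd9, 2076 kb away on the other side, was not (129 against 123 CPM). Spred1 (chr2:117121071-117182279), which brings the RAS GAP neurofibromin to the membrane, was at 0.74, 0, 0.289 and 0 CPM in VQ-D1 and 65.3, 113, 92.2 and 67.4 CPM in VQ-D4 (log2 difference -8.34 ± 0.39 SE, adjusted p = 2.02e-12). Its neighbour Fam98b, 67.43 kb away, was at 27.1 CPM in VQ-D1 and 20.8 CPM in VQ-D4. BC052040, 1342 kb away on the other side, was higher in VQ-D1 (9.78 against 4.59 CPM, adjusted p = 0.0478). The BC052040 call was lost without any single library except VQ-D1 replicate 4 and VQ-D4 replicate 2 (adjusted p from 0.0542 to 0.199). Kdm6a (chrX:18160862-18279936), the X-linked H3K27 demethylase UTX, was at 2.96, 0.165, 0 and 0.835 CPM in VQ-D1 and 23.5, 19.9, 25.5 and 25.8 CPM in VQ-D4 (log2 difference -5.04 ± 0.46 SE, adjusted p = 9.23e-08). Its neighbour Fundc1, 588.5 kb away, was at 32.04 and 29.97 CPM. Slc9a7, 1819 kb away, was higher in VQ-D1 (40.9 against 21.1 CPM, adjusted p = 0.00163). Cdkn2c (chr4:109660876-109666756), which encodes the CDK4/6 inhibitor p18, was at 3.6999, 0.992, 1.35 and 0.974 CPM in VQ-D1 and 29.6, 18.6, 28.8 and 25.2 CPM in VQ-D4 (log2 difference -4.18 ± 0.34 SE, adjusted p = 1.71e-09), beside Rnf11 at 49.98 and 59.8 CPM and Faf1, called in the same direction as Cdkn2c, at 62.8 and 93.1 CPM (adjusted p = 0.000287). For each of these 4 genes, every VQ-D1 library lay below every VQ-D4 library, and control plasma cells averaged 237 CPM of Cyld, 10.2 CPM of Spred1, 72.6 CPM of Kdm6a and 13.5 CPM of Cdkn2c.

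In the other direction, several surface and signalling genes were near absent or reduced in VQ-D4. Ptprc (chr1:138062859-138175756), the CD45 phosphatase of leukocytes, was at 212, 199, 201 and 205 CPM in VQ-D1 and 0.871, 10.01, 1.31 and 1.93 CPM in VQ-D4 (log2 difference 7.37 ± 0.33 SE, adjusted p = 2.02e-12), highest among VQ-D4 libraries in the liver. Cd93 (chr2:148436651-148443535), a C-type lectin-like receptor needed by long-lived plasma cells, was at 167, 225, 121 and 165 CPM in VQ-D1 and 0.373, 0.77, 0.327 and 0 CPM in VQ-D4 (log2 difference 8.97 ± 0.37 SE, adjusted p = 1.29e-13). Of the neighbours of Ptprc, Zfp281, 1432 kb away, was at 57.4 and 59.9 CPM. Nek7, 308.1 kb away, was also higher in VQ-D1 (249.8 against 197 CPM, adjusted p = 0.0348). The Nek7 call was lost without VQ-D1 replicate 1 or 2 or VQ-D4 replicate 3 or 4 (adjusted p from 0.0839 to 0.127). Of the neighbours of Cd93, Xrn2, 1359 kb away, was at 189 and 176 CPM. Nxt1, 229.1 kb away, was also higher in VQ-D1 (14.5 against 8.26 CPM, adjusted p = 0.00638). The Nxt1 call was lost without the VQ-D4 marrow library (adjusted p = 0.117). Jak1 (chr4:101151974-101265282), a kinase of the IL-6 and interferon receptors, was reduced but present in VQ-D4, at 106, 101, 110.0 and 108 CPM in VQ-D1 and 19.4, 9.09, 12.1 and 11.6 CPM in VQ-D4 (log2 difference 2.80 ± 0.20 SE, adjusted p = 5.3e-10). Of its neighbours, Dnajc6, 231.4 kb away, shared the direction (49.1 against 6.31 CPM, adjusted p = 0.000204). Pgm1, 1165 kb away, was at 7.39 and 5.59 CPM. Pim2, a serine/threonine kinase that myeloma cells depend on, was at 102, 123, 80.5 and 98.3 CPM in VQ-D1 and 3.11, 5.54, 7.19 and 5.805 CPM in VQ-D4 (log2 difference 4.57 ± 0.31 SE, adjusted p = 4.84e-10), and its relative Pim1 at 372, 401, 320.4 and 326 CPM in VQ-D1 and 38.8, 56.7, 79.8 and 59.3 CPM in VQ-D4 (log2 difference 2.77 ± 0.27 SE, adjusted p = 3.85e-07).

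Further genes near absent in 1 line had varied roles. Zfpm2, a GATA cofactor, was at 0 in VQ-D4 and at 53.5, 53.9, 39.5 and 40.9 CPM in VQ-D1, at least 324-fold higher, and Sis, the intestinal sucrase-isomaltase, at 0 and 94.96, 79.4, 67.6 and 48.7 CPM, at least 501-fold. The controls averaged 0.116 CPM of Zfpm2 and 0.0878 CPM of Sis. Enpp3 (172, 290.3, 156 and 232 CPM in VQ-D1) and Clec2f (97.7, 124, 118 and 132 CPM) each had 1 to 3 reads in VQ-D4, which gives ratios of 4291 (769.9 to 169524) and 2478 (444 to 97909) with 95% counting intervals. VQ-D4 in turn expressed the cancer-testis antigen gene Trap1a at 723, 32.3, 323 and 456 CPM against 0.493, 0.165, 0.0964 and 0.418 CPM, lowest in the liver. Trpc6, a cation channel, was at 0.493, 0, 0.0964 and 0.278 CPM in VQ-D1 and 112, 106, 126 and 134 CPM in VQ-D4, and Spon1, a secreted matrix protein, at 1.23, 0.496, 1.16 and 1.95 CPM in VQ-D1 and 1063, 342, 1088 and 291 CPM in VQ-D4. Nr2f2, a nuclear receptor of mesenchymal and venous cells, was at 48.4, 77.6, 39.6 and 15.8 CPM in VQ-D4 and at most 0.247 CPM in VQ-D1. Wwtr1, which encodes the hippo pathway coactivator TAZ, was at 0 in VQ-D1 and at 9.34, 12.2, 15.4 and 11.6 CPM in VQ-D4, at least 112-fold higher. The scaffold Amotl2 accompanied it, at 0.371 and 24.8 CPM, while Yap1 was higher in VQ-D1 (119 against 60.9 CPM). Also at 0 in a line were H2-Oa (29.5 CPM), Pcdh10 (31.5 CPM) and Slc30a2 (12.5 CPM), found in VQ-D1, and Gabra4 (37.5 CPM) and Xlr4a (14.4 CPM), found in VQ-D4. Atp10a, Esrp1, Fscn1, Pls3 and Slc44a2 averaged 46.3, 63.9, 23.5, 21.4 and 19.7 CPM in VQ-D1 and under 1 CPM in VQ-D4, and Zbtb10 averaged 0.0617 CPM in VQ-D1 and 53.4 CPM in VQ-D4.

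Abundant genes differed too. Of the genes with the largest differences in mean CPM, Cp, which encodes the copper oxidase ceruloplasmin, was at 1813, 986, 2819 and 796 CPM in VQ-D1 and 130.4, 295, 44.5 and 18.1 CPM in VQ-D4 (log2 difference 4.40 ± 0.67 SE, adjusted p = 0.000115). Chst1, a keratan sulfotransferase, was at 1533, 1609.7, 1638 and 1639.6 CPM in VQ-D1 and 456, 409, 421 and 385 CPM in VQ-D4 (log2 difference 1.88 ± 0.28 SE, adjusted p = 5.49e-05), and Itm2b, a membrane protein of the Golgi, averaged 4253 and 2072 CPM. Both lines had Chst1 in a narrow range, with a gap between them. The nuclear RNA Malat1 was higher in VQ-D4, at 9044, 8496, 11197 and 11556 CPM in VQ-D1 and 35843, 49403, 21612 and 22262 CPM in VQ-D4 (log2 difference -1.37 ± 0.21 SE, adjusted p = 6.46e-05), highest in marrow and liver. The other abundant genes that this ranking gave, Hsp90b1, Sel1l, Mki67, Eef2, Rpl8, Xbp1, Slc3a2 and Jund, are described with their pathways.

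**Figure D2:**
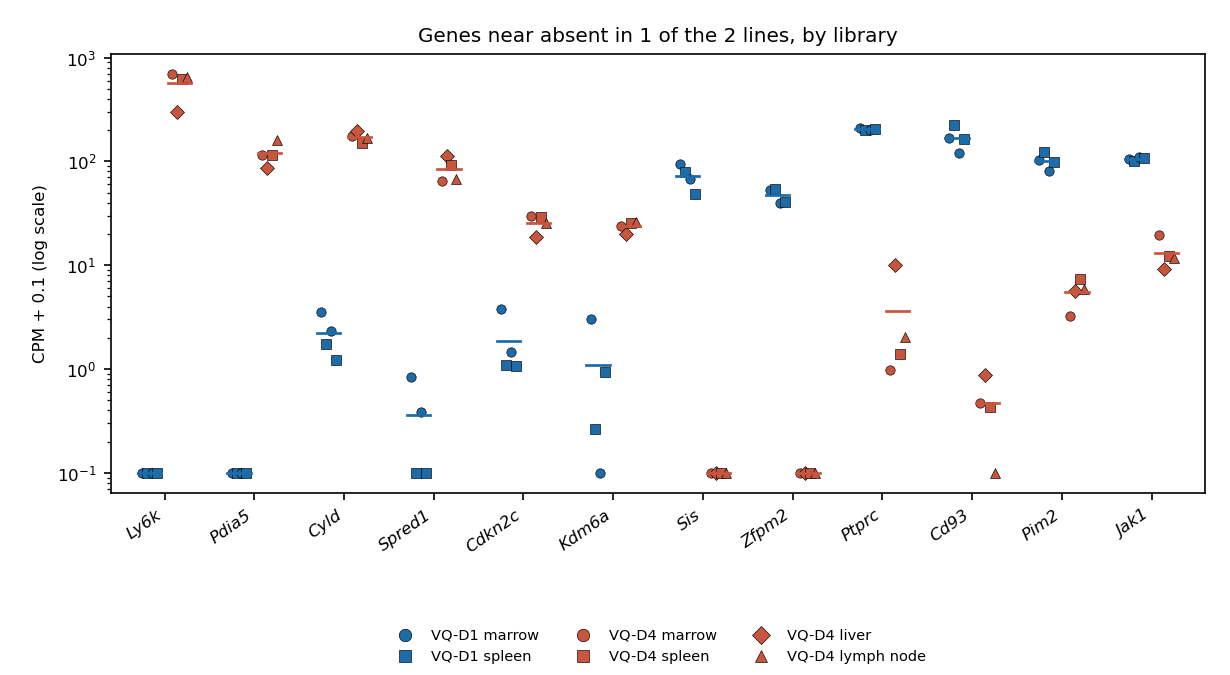
Level in CPM of 12 genes near absent or reduced in 1 line, on a log axis with 0.1 CPM added to every value. There is 1 point a library (blue VQ-D1, red VQ-D4, circles marrow, squares spleen, diamond liver, triangle lymph node) and a bar at the mean of each line. Jak1 and Pim2 were reduced but present in VQ-D4. The first 6 genes, from Ly6k to Kdm6a, sit lower in all VQ-D1 libraries, and the others, from Sis to Jak1, lower in all VQ-D4 libraries.

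Single plasma cell identity genes differed in both directions. Of 16 tested transcription factors and secretory genes, 4 were higher in VQ-D1 and 4 in VQ-D4, with a median of -0.16. These shares are near the 19% and 19.3% over all tested genes, so the count is no result about the list. The VQ-D1 count was 2 without VQ-D1 replicate 1, VQ-D1 replicate 2 or VQ-D4 replicate 4. Xbp1, the factor that builds the secretory apparatus, was at 1162, 1463, 1296 and 1462 CPM in VQ-D1 and 2938, 3246, 2414 and 2819.8 CPM in VQ-D4 (log2 difference -0.97 ± 0.16 SE, adjusted p = 9.35e-05). Prdm1, which encodes BLIMP1, the factor that ends the B cell programme, was at 378, 399.6, 204 and 182 CPM in VQ-D1 and 549, 582, 1006 and 543 CPM in VQ-D4 (log2 difference -1.27 ± 0.28 SE, adjusted p = 0.00188), but did not pass in marrow and spleen alone (adjusted p = 0.13). Fkbp11, a secretory prolyl isomerase, averaged 219 and 633 CPM. All 3 were higher in VQ-D4 without overlap.

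The immunoglobulin assembly genes Mzb1 and Igj went the other way. Mzb1, a chaperone of immunoglobulin assembly, was at 311, 391, 226 and 309 CPM in VQ-D1 and 0.747, 2.002, 10.1 and 32.9 CPM in VQ-D4 (log2 difference 4.99 ± 0.61 SE, adjusted p = 1.25e-05), and VQ-D4 lymph node stood above the other VQ-D4 tissues. Igj, the joining chain of polymeric immunoglobulin, was at 617, 626, 828 and 612 CPM in VQ-D1 and 39.5, 14.5, 45.8 and 15.8 CPM in VQ-D4 (log2 difference 4.18 ± 0.60 SE, adjusted p = 6.38e-05). Both lines stood far below the control mean of 40460.3 CPM. Of 28 genes of the unfolded protein response and folding in the endoplasmic reticulum, 6 were higher in VQ-D1 and 7 in VQ-D4. The VQ-D1 count was 3 without VQ-D1 replicate 1 or VQ-D4 replicate 1 and 2 without VQ-D1 replicate 2 or VQ-D4 replicate 4. Hsp90b1, the abundant chaperone GRP94, was at 8577, 10679, 9314 and 8392 CPM in VQ-D1 and 6163, 5525, 6643 and 7654 CPM in VQ-D4 (log2 difference 0.50 ± 0.13 SE, adjusted p = 0.0046), and Sel1l, of the degradation complex, at 4944, 5929, 4866 and 4600.1 CPM in VQ-D1 and 3519.7, 3186, 3666 and 3427 CPM in VQ-D4 (log2 difference 0.57 ± 0.21 SE, adjusted p = 0.0423). Herpud1, a stress-induced member of the same complex, was higher in VQ-D4, at 339, 298, 232 and 237 CPM in VQ-D1 and 1119, 1589.8, 1088 and 1042 CPM in VQ-D4 (log2 difference -1.95 ± 0.29 SE, adjusted p = 7.58e-05). The levels of these 3 genes did not overlap between the lines, but the Sel1l call was lost on leaving out any single library except VQ-D1 replicate 4 and VQ-D4 replicate 2 (adjusted p from 0.062 to 0.123).

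Among 18 tested surface proteins used as myeloma targets, 3 were higher in VQ-D1 and 4 in VQ-D4, with 2 in VQ-D4 without the VQ-D4 marrow library, shares near the 19% and 19.3% over all tested genes. Tnfrsf17, which encodes BCMA, was at 7.65, 7.94, 2.51 and 1.95 CPM in VQ-D1 and 28.6, 12.8, 10.5 and 17.7 CPM in VQ-D4 (log2 difference -2.04 ± 0.48 SE, adjusted p = 0.00287), and its call was lost without the VQ-D4 marrow library (adjusted p = 0.0653) and in marrow and spleen alone (adjusted p = 0.0797). Tnfrsf13c, the BAFF receptor, was at 165, 133, 191 and 174 CPM in VQ-D1 and 559, 349.7, 506 and 402 CPM in VQ-D4 (log2 difference -1.65 ± 0.26 SE, adjusted p = 9.77e-05). Il5ra, the alpha chain of the IL-5 receptor, was at 7.15, 3.47, 4.53 and 2.78 CPM in VQ-D1 and 42.4, 29.4, 26.2 and 21.9 CPM in VQ-D4 (log2 difference -2.91 ± 0.40 SE, adjusted p = 2.75e-05). Both receptors were higher in all 4 VQ-D4 libraries. Cd37, a tetraspanin, averaged 34.5 and 141 CPM. Crbn, the target of lenalidomide, was slightly higher in VQ-D4 (99.5 against 128 CPM, log2 difference -0.36 ± 0.10 SE, adjusted p = 0.00704), a call lost without the VQ-D4 marrow library (adjusted p = 0.107).

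Interferon-response genes were higher in VQ-D1. Of 28 tested members, 16 were higher in VQ-D1 and 0 in VQ-D4, with a median log2 difference of 1.53 beside 0.05 for all genes. The count was 9 without the VQ-D4 marrow library, and marrow and spleen alone gave 12 and 1 of 23. Trim30a, an interferon-induced regulator of innate signalling, was at 52.8, 54.9, 56.02 and 58.7 CPM in VQ-D1 and 1.87, 0.616, 6.54 and 2.902 CPM in VQ-D4 (log2 difference 4.19 ± 0.37 SE, adjusted p = 2.81e-08). Ifitm3, a restriction factor of virus entry, averaged 20.8 and 3.49 CPM. In both genes every VQ-D1 library exceeded every VQ-D4 library. Some members were low in both lines, such as Oas3, an antiviral oligoadenylate synthetase, at 4.19, 0.827, 3.95 and 1.81 CPM in VQ-D1 and 0.124, 0, 0.654 and 0 CPM in VQ-D4, whose call was lost without the VQ-D4 marrow library (adjusted p = 0.0973). Irf7, a factor that sustains interferon output, did not pass the test (13.6, 6.95, 9.45 and 9.05 CPM in VQ-D1 and 10.8, 10.01, 23.5 and 11.6 CPM in VQ-D4), though it did, higher in VQ-D4, without VQ-D1 replicate 1 (adjusted p = 0.0481) or the VQ-D4 marrow library (adjusted p = 0.0388).

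Windows of 250 bases before the start of these genes were searched for GAAANNGAAA on both strands, a form of the interferon-stimulated response element. The sequences come from RefSeq on GRCm38.p6. The motif was present in 10 of 22 interferon list members with a window, among them 6 of 14 that were higher in VQ-D1, and in 936 of 27025 genes (3.46%). Of 10360 tested genes with a window, 333 (3.21%) had it. Shown are a member with a large difference and 1 at low level, with the match in capitals, read 5′ to 3′ on the strand of the gene. The Trim30a window is chr7:104465194-104465443 (- strand), where the match is on the opposite strand, 36 bases before the start. The Oas3 window is chr5:120777660-120777909 (- strand), with the match 75 bases before the start.
Trim30a: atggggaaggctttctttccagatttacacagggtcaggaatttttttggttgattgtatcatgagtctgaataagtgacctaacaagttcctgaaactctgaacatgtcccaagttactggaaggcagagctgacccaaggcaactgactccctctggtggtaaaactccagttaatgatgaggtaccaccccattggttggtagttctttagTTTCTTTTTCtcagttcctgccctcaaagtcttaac
Oas3: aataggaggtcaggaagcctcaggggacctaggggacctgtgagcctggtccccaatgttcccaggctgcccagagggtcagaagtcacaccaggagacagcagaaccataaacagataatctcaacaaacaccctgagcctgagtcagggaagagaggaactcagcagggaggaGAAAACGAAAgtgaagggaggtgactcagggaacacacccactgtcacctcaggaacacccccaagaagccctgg
Interferon list members with a match included genes that passed the test and genes that did not, and a match is a description of these letters only.

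Antigen presentation by MHC class I and NF-kB genes shared this direction. Of 16 class I presentation genes, 9 were higher in VQ-D1 and 1 in VQ-D4, with a median of 0.54. Psmb8, an immunoproteasome subunit, was at 304, 342, 379 and 417 CPM in VQ-D1 and 135, 68.4, 172 and 106 CPM in VQ-D4 (log2 difference 1.34 ± 0.14 SE, adjusted p = 1.52e-07). H2-K1, a class I heavy chain, was at 1588, 1714, 1772 and 1652 CPM in VQ-D1 and 709, 719.6, 1158 and 676 CPM in VQ-D4 (log2 difference 0.95 ± 0.18 SE, adjusted p = 0.000271), and its partner B2m averaged 2002 and 1113 CPM. The peptide transporter gene Tap1 averaged 177 and 90.03 CPM. The levels of these 4 genes were higher in each VQ-D1 library than in any VQ-D4 library. Calr was the member higher in VQ-D4, at 1862 and 2677 CPM. Of 12 tested class II genes, 4 were higher in VQ-D1 and 1 in VQ-D4, and the first count was 2 without the VQ-D4 marrow library.

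Among 25 subunits, regulators and targets of NF-kB, 13 were higher in VQ-D1 and 3 in VQ-D4 (1 without VQ-D4 replicate 3), with a median of 0.74. Nfkb2, the precursor of the p52 subunit, was at 76.7, 75.6, 54.1 and 53.7 CPM in VQ-D1 and 9.71, 14.3, 21.6 and 9.03 CPM in VQ-D4 (log2 difference 2.38 ± 0.37 SE, adjusted p = 7.1e-05), and its dimer partner Relb averaged 29.99 and 9.798 CPM. Tnfaip3, the feedback inhibitor A20, was at 165, 128, 96.5 and 106 CPM in VQ-D1 and 12.2, 3.23, 20.3 and 3.55 CPM in VQ-D4 (log2 difference 3.23 ± 0.35 SE, adjusted p = 1.23e-06). Nfkbia, the inhibitor IkB-alpha and a direct target, was at 296, 224, 224 and 204 CPM in VQ-D1 and 63.4, 34.3, 112 and 64.8 CPM in VQ-D4 (log2 difference 1.59 ± 0.28 SE, adjusted p = 0.000283). Neither Nfkb2, Tnfaip3 nor Nfkbia overlapped between the lines. The negative regulator Traf3 was likewise higher in VQ-D1 (112 against 52.5 CPM). Of the inhibitors, Cyld was the exception, near absent in VQ-D1. Nfkbiz, an atypical IkB protein, was higher in VQ-D4 (17.2 against 82.5 CPM), a call lost without VQ-D4 replicate 3 (adjusted p = 0.1).

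IL-6 receptor and JAK-STAT genes were called in VQ-D1 for 11 of 22 and in VQ-D4 for 3, with a median of 0.48, and the VQ-D1 count was 7 without the VQ-D4 marrow library. The VQ-D4 count was 1 without VQ-D1 replicate 2, VQ-D4 replicate 3 or VQ-D4 replicate 4. The receptor chain Il6ra was at 93.98, 83.2, 113 and 100.1 CPM in VQ-D1 and 39.2, 46.05, 57.9 and 48.05 CPM in VQ-D4 (log2 difference 0.997 ± 0.24 SE, adjusted p = 0.00336). Downstream of it, Jak1 and Pim2 differed as given above, Tyk2 averaged 134 and 61.2 CPM, and Stat5b 60.2 and 20.2 CPM. Jak3, the kinase of the common gamma chain, had the opposite direction, at 14.8, 14.2, 13.02 and 21.02 CPM in VQ-D1 and 32.2, 99.2, 39.2 and 54.2 CPM in VQ-D4 (log2 difference -1.28 ± 0.24 SE, adjusted p = 0.000238). All VQ-D4 libraries exceeded all VQ-D1 libraries in Jak3, with the liver highest.

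MAPK output and feedback genes were higher in VQ-D4. Of 20 tested, 1 was higher in VQ-D1 and 10 in VQ-D4, with a median of -1.87, and marrow and spleen alone gave 1 and 11 of 18. Phlda1, a pleckstrin-homology protein induced by ERK, was at 70.8, 32.1, 24.97 and 22.1 CPM in VQ-D1 and 223, 428, 429 and 327 CPM in VQ-D4 (log2 difference -3.23 ± 0.48 SE, adjusted p = 9.12e-05). Dusp4, a nuclear ERK phosphatase, was at 0.493, 0.331, 0.193 and 0.418 CPM in VQ-D1 and 14.2, 11.6, 24.2 and 6.45 CPM in VQ-D4 (log2 difference -5.46 ± 0.88 SE, adjusted p = 0.00012). Epha2, a receptor tyrosine kinase that ERK induces, was at 5.67, 8.77, 6.65 and 8.07 CPM in VQ-D1 and 37.6, 36.04, 52.3 and 36.8 CPM in VQ-D4 (log2 difference -2.50 ± 0.38 SE, adjusted p = 3.36e-05). In all 3, each VQ-D4 library exceeded each VQ-D1 library. The feedback inhibitor Spry4 was the member higher in VQ-D1, at 83.4, 83.4, 58.1 and 47.3 CPM in VQ-D1 and 29.1, 20.5, 32.05 and 15.5 CPM in VQ-D4 (log2 difference 1.33 ± 0.27 SE, adjusted p = 0.000716). Dusp6, the cytoplasmic ERK phosphatase often used as a readout of the pathway, did not pass the test (43.9, 24.5, 23.8 and 34.7 CPM in VQ-D1 and 16.9, 2.77, 22.2 and 8.38 CPM in VQ-D4, log2 difference 0.94 ± 0.41 SE, adjusted p = 0.0811). Spred1 counts among the 10, and Etv1, an ERK-responsive ETS factor, was at 0 in VQ-D1 and at 3.61, 23.4, 2.62 and 0.967 CPM in VQ-D4, highest in the liver.

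Immediate early genes, the transcription factors that growth and stress signals induce first, were higher in VQ-D4 for 11 of 22 and in VQ-D1 for 0, with a median of -2.54. Marrow and spleen alone called 7 of 20. Jund, an AP-1 subunit, was at 448, 315, 264 and 294 CPM in VQ-D1 and 2050.5, 2172, 2448 and 2035 CPM in VQ-D4 (log2 difference -2.73 ± 0.32 SE, adjusted p = 6.78e-06). Fosl2, its FOS-family partner, was at 6.66, 6.62, 4.05 and 1.81 CPM in VQ-D1 and 88.1, 80.9, 39.9 and 48.05 CPM in VQ-D4 (log2 difference -3.59 ± 0.62 SE, adjusted p = 0.000288). Egr1, a zinc-finger factor downstream of ERK, was at 117, 37.1, 26.9 and 32.8 CPM in VQ-D1 and 390.1, 1334, 1555 and 828 CPM in VQ-D4 (log2 difference -3.96 ± 0.75 SE, adjusted p = 0.000684), but not called in marrow and spleen alone (adjusted p = 0.0706). Btg2, an antiproliferative factor, averaged 388 and 1023 CPM. No library of Jund, Fosl2, Egr1 or Btg2 overlapped between the lines. Klf4 reached 21.7, 8.78, 99.7 and 29.3 CPM in VQ-D4, against at most 0.987 CPM in VQ-D1. Fos (722, 83.03, 81.8 and 168 CPM in VQ-D1 and 159, 188, 2053 and 501 CPM in VQ-D4) and Jun (1196, 261, 247 and 343 CPM in VQ-D1 and 891, 1024, 3809 and 1620.1 CPM in VQ-D4) overlapped and did not pass the test, with VQ-D1 replicate 1 highest in its line for both. Without VQ-D1 replicate 1, Jun passed, higher in VQ-D4 (adjusted p = 0.00835), as it did without the VQ-D4 marrow library (adjusted p = 0.0329). Without VQ-D4 replicate 3, the Fos difference turned to 0.61 (adjusted p = 0.735).

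Many of these genes are also induced when tissue is dissociated. A list of 16 dissociation and stress genes had 0 members higher in VQ-D1 and 9 in VQ-D4, with a median of -2.06, and 5 in VQ-D4 without VQ-D4 replicate 3. Its summed level was 3792, 1230, 1216 and 1461 CPM in the VQ-D1 libraries and 3171, 4935, 12450 and 5578 CPM in the VQ-D4 libraries. VQ-D1 replicate 1 stood above VQ-D4 replicate 1, and VQ-D4 replicate 3 was far above all others. The heat shock gene Hspa1a of that list was at 0.247, 0, 0 and 0 CPM in VQ-D1 and 3.11, 2.16, 10.5 and 5.805 CPM in VQ-D4. The part of sample handling in the MAPK and immediate early differences was not tested.

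ATF4 targets, which supply amino acids under stress, were higher in VQ-D4 for 18 of 24 and in VQ-D1 for 1, with a median of -1.10. Marrow and spleen alone gave the same counts, 18 and 1. Atf4 itself was at 452, 345, 339 and 303 CPM in VQ-D1 and 717, 851, 782 and 805 CPM in VQ-D4 (log2 difference -1.06 ± 0.13 SE, adjusted p = 7.51e-07). Nupr1, a small stress-induced chromatin protein, was at 1.97, 1.49, 2.6998 and 2.64 CPM in VQ-D1 and 40.5, 68.5, 91.9 and 72.6 CPM in VQ-D4 (log2 difference -4.87 ± 0.71 SE, adjusted p = 5.31e-05). Chac1, which degrades glutathione, was at 57.2, 33.1, 18.4 and 20.04 CPM in VQ-D1 and 199.5, 403, 440.1 and 220.3 CPM in VQ-D4 (log2 difference -3.13 ± 0.51 SE, adjusted p = 0.000179). All 3 genes were free of overlap. Among transporters of the set, Slc7a11, the cystine importer, was at 28.1, 24.5, 23.04 and 12.7 CPM in VQ-D1 and 139, 156, 145 and 104 CPM in VQ-D4 (log2 difference -2.61 ± 0.55 SE, adjusted p = 0.00141). Slc7a5, the large neutral amino acid importer LAT1, was at 241, 211, 243 and 199 CPM in VQ-D1 and 848, 988, 877 and 945 CPM in VQ-D4 (log2 difference -1.98 ± 0.26 SE, adjusted p = 1.63e-05), and its heavy chain Slc3a2 averaged 1526 and 3542 CPM. Each transporter was higher in all 4 VQ-D4 libraries.

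The mitochondrial folate genes Mthfd2 (68.7 against 191 CPM) and Aldh1l2 (52.7 against 161 CPM) were called in the same direction as the transporters, Aldh1l2 not without the VQ-D4 marrow library (adjusted p = 0.0562). In serine synthesis, Phgdh passed the test (54.8 against 78.2 CPM, log2 difference -0.48 ± 0.17 SE, adjusted p = 0.0281) while Psat1 did not (158 against 196 CPM). The Phgdh call was lost without VQ-D1 replicate 2 or 4 or VQ-D4 replicate 1 or 3 (adjusted p from 0.0582 to 0.196). Shmt1, of cytosolic folate metabolism, was the member higher in VQ-D1 (58.5 against 30.3 CPM).

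The amino acid response element was searched as TGATGNAA on both strands in the same windows of 250 bases. It was present in 5 of 20 members of the ATF4 list with a window, all 5 among the 15 that were higher in VQ-D4, and in 1056 of 27025 genes (3.91%). Of 10360 tested genes with a window, 268 (2.59%) had it. The windows of the 3 matched genes described above follow, with the match in capitals, 5′ to 3′ on the strand of the gene. They are chr7:126625471-126625720 (- strand) for Nupr1, chr2:119350992-119351241 (+ strand) for Chac1 and chr3:50443614-50443863 (- strand) for Slc7a11, which holds 2 matches.
Nupr1: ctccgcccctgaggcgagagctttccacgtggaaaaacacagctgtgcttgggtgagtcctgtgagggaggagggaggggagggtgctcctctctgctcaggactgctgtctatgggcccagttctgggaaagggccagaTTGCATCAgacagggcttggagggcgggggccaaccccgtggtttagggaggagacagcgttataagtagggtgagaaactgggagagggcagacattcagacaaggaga
Chac1: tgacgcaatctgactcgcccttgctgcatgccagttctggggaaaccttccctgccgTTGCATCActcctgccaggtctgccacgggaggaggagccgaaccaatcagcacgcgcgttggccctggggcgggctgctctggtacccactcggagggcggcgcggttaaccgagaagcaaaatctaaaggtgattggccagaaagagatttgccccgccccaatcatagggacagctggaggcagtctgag
Slc7a11: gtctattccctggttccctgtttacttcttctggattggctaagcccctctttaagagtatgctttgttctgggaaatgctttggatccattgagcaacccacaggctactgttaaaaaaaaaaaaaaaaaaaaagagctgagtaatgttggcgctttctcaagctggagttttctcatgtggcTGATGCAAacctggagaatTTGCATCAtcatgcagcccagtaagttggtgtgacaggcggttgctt
The matches in Nupr1 and Chac1 and the second in Slc7a11 read on the opposite strand. No occupancy of these windows was measured. Other lists were searched in the same way. The CArG box, a stretch of A and T between CC and GG, was present in 2 of 18 immediate early genes with a window. Of the 8 higher in VQ-D4, 1 had it, as did 439 of 27025 genes (1.62%) and 140 of 10360 tested genes (1.35%). CACGTG was present in 2 of 25 ribosome biogenesis genes with a window, in 1854 of 27025 genes (6.86%) and in 1007 of 10360 tested genes (9.72%).

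Ribosomal protein and respiratory chain genes were higher in VQ-D4. Of 42 cytosolic ribosomal proteins, 28 were higher in VQ-D4 and 0 in VQ-D1, with a median of -0.59, and 17 when counts were summed per recipient number. The fit of these sums has no tissue term and takes the liver library as a VQ-D4 sum of its own, so its counts do not isolate recipients. Rpl8, of the large subunit, was at 1929, 2201, 2051 and 2148 CPM in VQ-D1 and 4129.6, 3777, 4193 and 4763 CPM in VQ-D4 (log2 difference -1.08 ± 0.09 SE, adjusted p = 2.06e-09). Eef2, the elongation factor of translocation, was at 4985, 5293, 4705 and 4839 CPM in VQ-D1 and 8749, 7338, 8539 and 9096 CPM in VQ-D4 (log2 difference -0.84 ± 0.09 SE, adjusted p = 1.74e-07). Both were higher in each VQ-D4 library. Several pseudogenes resemble ribosomal protein genes, and the labels do not say how the authors' counting split such reads. Of 36 nuclear genes of oxidative phosphorylation, 19 were higher in VQ-D4 and 0 in VQ-D1, with a median of -0.33, and 6 with sums per recipient number. Cox4i1, a subunit of cytochrome oxidase on chromosome 8, was at 129, 137, 126 and 116 CPM in VQ-D1 and 298, 269.5, 307 and 344 CPM in VQ-D4 (log2 difference -1.32 ± 0.10 SE, adjusted p = 9.31e-10). Of 30 ribosome biogenesis genes, 8 were higher in VQ-D1 and 5 in VQ-D4. These counts were 4 in VQ-D1 without VQ-D4 replicate 1, and 3 in VQ-D4 without VQ-D1 replicate 1, 2 or 4 or VQ-D4 replicate 4.

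In the PI3K, AKT and mTOR list, 5 of 31 were higher in VQ-D1 and 13 in VQ-D4, with a median of -0.20. The VQ-D1 count was 3 without VQ-D1 replicate 2 or VQ-D4 replicate 3. Deptor, an mTOR inhibitor that myeloma cells express, was at 11.6, 8.27, 17.9 and 12.9 CPM in VQ-D1 and 99.3, 96.3, 97.8 and 116 CPM in VQ-D4 (log2 difference -3.07 ± 0.19 SE, adjusted p = 2.26e-11). Pik3cg, a catalytic subunit, was at 229, 232, 228 and 208 CPM in VQ-D1 and 673, 931, 629 and 869 CPM in VQ-D4 (log2 difference -1.62 ± 0.16 SE, adjusted p = 1.21e-07). Insr, the insulin receptor, was at 3.95, 0, 1.16 and 0.278 CPM in VQ-D1 and 46.3, 70.99, 39.9 and 40.95 CPM in VQ-D4 (log2 difference -5.27 ± 0.42 SE, adjusted p = 1.95e-08). Each of these genes was higher in all VQ-D4 libraries. Rictor, the defining subunit of mTORC2, averaged 102 and 269 CPM, and Ddit4, a stress-induced mTORC1 inhibitor, 24.04 and 199 CPM.

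**Figure D3:**
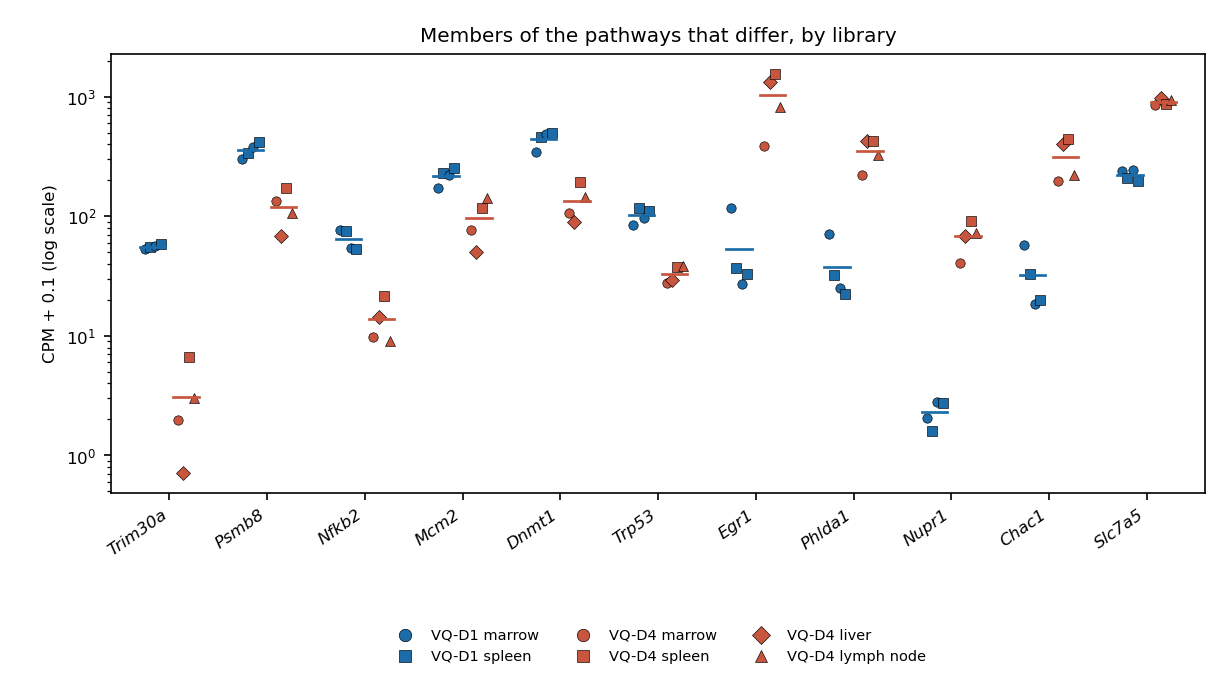
Level in CPM of 11 pathway genes, on a log axis with 0.1 CPM added to every value, with 1 point a library (blue VQ-D1, red VQ-D4; circles marrow, squares spleen, diamond liver, triangle lymph node) and a bar at the mean of each line. Trim30a to Trp53 are higher in all VQ-D1 libraries, and Egr1 to Slc7a5 in all VQ-D4 libraries.

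DNA replication genes were higher in VQ-D1. Of 30 tested, 21 were higher in VQ-D1 and 2 in VQ-D4, with a median of 0.88, and 15 in VQ-D1 without the VQ-D4 marrow library. The VQ-D4 count was 1 without VQ-D1 replicate 1 or 2 or VQ-D4 replicate 3 or 4. Mcm2, of the replicative helicase, was at 171, 231, 223 and 254 CPM in VQ-D1 and 76.7, 50.1, 117 and 141 CPM in VQ-D4 (log2 difference 1.03 ± 0.17 SE, adjusted p = 4.85e-05). Pola1, the catalytic subunit of the primase complex polymerase, was at 43.9, 45.98, 48.98 and 53.3 CPM in VQ-D1 and 14.3, 11.1, 18.97 and 12.3 CPM in VQ-D4 (log2 difference 1.64 ± 0.19 SE, adjusted p = 5.45e-07). Cdc6, which licenses origins, averaged 45.95 and 15.8 CPM. The VQ-D1 libraries were higher throughout in these 3 genes. Of 30 mitosis genes, 5 were higher in VQ-D1 and 1 in VQ-D4, with a median of 0.23, 3 in VQ-D1 without the VQ-D4 marrow library and 2 in VQ-D4 without VQ-D1 replicate 2. Mki67, the proliferation marker, was at 2143, 3394, 3006 and 2853 CPM in VQ-D1 and 1114, 1379, 1661 and 1519 CPM in VQ-D4 (log2 difference 0.96 ± 0.20 SE, adjusted p = 0.000921). Of 15 cyclin D, CDK4/6 and inhibitor genes, 6 were higher in VQ-D1 (2 without the VQ-D4 marrow library and 3 without VQ-D4 replicate 4) and 5 in VQ-D4. Ccnd2, a D-type cyclin, was abundant in both lines (2240.3 and 2441 CPM, adjusted p = 0.896) and far above the control mean of 466 CPM. Cdkn2a, which encodes p16 and p19ARF, reached 17.3 CPM in VQ-D4 spleen and no more than 1.11 CPM in VQ-D1.

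The p53 gene and its targets were higher in VQ-D1 for 13 of 24 and in VQ-D4 for 3, with a median of 0.74. Trp53 was at 84.1, 118, 97.6 and 111 CPM in VQ-D1 and 27.4, 29.1, 37.3 and 38.1 CPM in VQ-D4 (log2 difference 1.63 ± 0.12 SE, adjusted p = 3.95e-10), and controls averaged 35.96 CPM. Cdkn1a, which encodes the CDK inhibitor p21, was at 56.98, 54.3, 72.8 and 57.3 CPM in VQ-D1 and 20.4, 26.8, 41.5 and 20.6 CPM in VQ-D4 (log2 difference 1.31 ± 0.34 SE, adjusted p = 0.0045). Bax, the effector of mitochondrial apoptosis, was at 56.98, 66.5, 80.5 and 63.9 CPM in VQ-D1 and 27.6, 22.9, 22.2 and 36.1 CPM in VQ-D4 (log2 difference 1.36 ± 0.14 SE, adjusted p = 1.15e-07). The libraries of the lines did not overlap in any of the 3. Zmat3 (193 against 86.4 CPM) and Eda2r (13.2 against 0.739 CPM) had the same direction. The death receptor gene Fas (1.34 against 7.72 CPM) and Perp (2.23 against 20.4 CPM) had the opposite one.

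In the BCL2 family, 5 of 15 were higher in VQ-D1 and 1 in VQ-D4 (2 without VQ-D1 replicate 3 or 4 or VQ-D4 replicate 4). Bcl2, the survival protein, was at 83.6, 42.8, 38.6 and 15.2 CPM in VQ-D1 and 6.97, 2.31, 8.83 and 0.645 CPM in VQ-D4 (log2 difference 2.68 ± 0.55 SE, adjusted p = 0.00122), and did not pass in marrow and spleen alone (adjusted p = 0.0952). Pmaip1, which encodes NOXA, was at 186, 171, 187 and 190.4 CPM in VQ-D1 and 46.7, 35.3, 81.7 and 42.2 CPM in VQ-D4 (log2 difference 1.60 ± 0.31 SE, adjusted p = 0.000611). Bmf, another BH3-only killer, was the member higher in VQ-D4, at 15.3, 15.5, 22.4 and 19.5 CPM in VQ-D1 and 105, 82.7, 132 and 99.3 CPM in VQ-D4 (log2 difference -2.66 ± 0.30 SE, adjusted p = 1.91e-06). Mcl1, on which plasma cells depend, differed little (617 against 507 CPM, log2 difference 0.37 ± 0.10 SE, adjusted p = 0.00366).

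Enzymes that write and erase chromatin marks differed in opposite ways. Among 14 DNA methylation genes, 5 were higher in VQ-D1 and 6 in VQ-D4. The maintenance methyltransferase Dnmt1 was at 343, 459, 487 and 500.2 CPM in VQ-D1 and 107, 90.1, 195 and 145 CPM in VQ-D4 (log2 difference 1.62 ± 0.15 SE, adjusted p = 1.49e-08), and its recruiter Uhrf1 averaged 106 and 35.3 CPM. The de novo enzyme Dnmt3a was at 19.7, 9.76, 12.1 and 16.7 CPM in VQ-D1 and 38.3, 41.1, 40.5 and 22.3 CPM in VQ-D4 (log2 difference -1.33 ± 0.27 SE, adjusted p = 0.000687). Of the oxidases that start demethylation, Tet2 averaged 51.7 and 92.2 CPM and Tet3 82.1 and 176 CPM, both called. Maintenance genes were thus higher in VQ-D1, and Dnmt3a and the TET genes in VQ-D4. Of 14 PRC2 and H3K27 demethylase genes, 5 were higher in VQ-D1 (2 without the VQ-D4 marrow library and 3 without VQ-D1 replicate 2 or 4 or VQ-D4 replicate 3 or 4) and 4 in VQ-D4, among them Kdm6a and Phf19, a PRC2 accessory protein, at 0, 0, 0.386 and 0.974 CPM in VQ-D1 and 9.09, 6.93, 4.25 and 15.5 CPM in VQ-D4 (log2 difference -4.39 ± 0.54 SE, adjusted p = 1.19e-06). Satb1, a chromatin organizer of lymphocytes, was at 2.22, 0.331, 1.83 and 1.25 CPM in VQ-D1 and 92.98, 108, 41.5 and 62.9 CPM in VQ-D4 (log2 difference -5.58 ± 0.26 SE, adjusted p = 1.89e-13), and Zhx2, a repressor, averaged 0.525 and 13.3 CPM.

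Adhesion and homing receptors were called for 8 of 30 in VQ-D1 and 3 in VQ-D4, with a median of 0.59. Itga4, the alpha chain of the VLA-4 integrin that anchors plasma cells in the marrow, was at 988, 1013, 993 and 1146 CPM in VQ-D1 and 222, 273, 237 and 281 CPM in VQ-D4 (log2 difference 2.13 ± 0.19 SE, adjusted p = 3.23e-08). Icam1 averaged 126 and 45.6 CPM, and Icam2 5.66 and 31.4 CPM, so that the 2 ICAM genes differed in opposite directions. Itgal, the alpha chain of LFA-1, their receptor, was higher in VQ-D4 (289, 344, 249.9 and 268 CPM in VQ-D1 and 551, 402, 543 and 473 CPM in VQ-D4, log2 difference -0.90 ± 0.16 SE, adjusted p = 0.000103). Cxcr4, the receptor for the marrow chemokine CXCL12, was at 127, 120.1, 138 and 127 CPM in VQ-D1 and 67.6, 116, 114 and 79.7 CPM in VQ-D4 (log2 difference 0.57 ± 0.18 SE, adjusted p = 0.0169), and its call was lost without the VQ-D4 marrow library (adjusted p = 0.193) or VQ-D4 replicate 4 (adjusted p = 0.0578). Of 27 TGF-beta and BMP genes, 3 were higher in VQ-D1 and 9 in VQ-D4. The ligand Bmp6 was at 5.92, 3.14, 0.964 and 1.25 CPM in VQ-D1 and 29.1, 34.5, 14.1 and 22.9 CPM in VQ-D4 (log2 difference -2.91 ± 0.43 SE, adjusted p = 1.79e-05), and the inhibitor Smad7 averaged 4.46 and 15.1 CPM, while the TGF-beta effector Smad3 was higher in VQ-D1 (66.7 against 33.4 CPM).

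Other surface and cytokine receptor genes separated the lines as well. Sirpa, the receptor of CD47, was at 9.87, 3.47, 4.72 and 2.51 CPM in VQ-D1 and 76.4, 69.9, 54.6 and 55.8 CPM in VQ-D4 (log2 difference -3.77 ± 0.23 SE, adjusted p = 1.01e-11). Lgals9, which encodes galectin-9, was at 16.03, 20.2, 17.9 and 23.5 CPM in VQ-D1 and 0, 0.462, 2.29 and 0.967 CPM in VQ-D4 (log2 difference 4.69 ± 0.55 SE, adjusted p = 1.29e-06). Axl, a receptor tyrosine kinase, was at 123, 99.4, 70.3 and 42.4 CPM in VQ-D1 and 6.47, 2.77, 7.85 and 15.2 CPM in VQ-D4 (log2 difference 3.36 ± 0.45 SE, adjusted p = 1.65e-05). None of the 3 overlapped, Sirpa being higher in VQ-D4 and Lgals9 and Axl in VQ-D1. Ly6a, which encodes SCA-1, was at 309, 386, 524 and 669.6 CPM in VQ-D1 and 22.03, 5.85, 18.6 and 22.3 CPM in VQ-D4 (log2 difference 4.55 ± 0.40 SE, adjusted p = 1.92e-07). In the Notch pathway, the glycosyltransferase Mfng was higher in VQ-D1 (41.5 against 5.07 CPM), and Notch1 (22.1 against 66.5 CPM) and its target Hes1 (2.13 against 19.4 CPM) in VQ-D4.

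Metabolic genes differed gene by gene. Of 22 glycolysis genes, 8 were higher in VQ-D1 and 2 in VQ-D4. Ldhb, a lactate dehydrogenase subunit, was at 15.5, 18.9, 17.1 and 18.2 CPM in VQ-D1 and 0.124, 0, 0 and 0.322 CPM in VQ-D4, which gives a ratio of 181 (49.9 to 1502) with a 95% counting interval. Slc2a3, a glucose transporter, was at 16.5, 12.7, 11.6 and 13.1 CPM in VQ-D1 and 0.996, 0.154, 0.327 and 0.322 CPM in VQ-D4 (log2 difference 4.19 ± 0.54 SE, adjusted p = 3.37e-06), while Slc2a1, another, was higher in VQ-D4 (33.2 against 74.1 CPM). Of 30 sterol and fatty acid genes, 10 were higher in VQ-D1, 3 with sums per recipient number, and 5 in VQ-D4, 3 without VQ-D1 replicate 3 and 2 without VQ-D4 replicate 1. Srebf2, the transcription factor that switches on sterol synthesis genes, was higher in VQ-D4, at 169.9, 172, 164 and 169 CPM in VQ-D1 and 396, 486, 370.2 and 357 CPM in VQ-D4 (log2 difference -1.09 ± 0.15 SE, adjusted p = 7.16e-06).

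The drug transporter and clock lists were also split unevenly. Of 19 transporters, 6 were higher in VQ-D1 and 1, Slc7a5, in VQ-D4. Abca3 was at 22.7, 18.4, 33.2 and 42.03 CPM in VQ-D1 and 2.24, 2.93, 3.27 and 4.19 CPM in VQ-D4 (log2 difference 3.34 ± 0.45 SE, adjusted p = 1.9e-05), and Slco4a1 averaged 18.96 and 0.908 CPM. Abcg2, the breast cancer resistance protein, was at 8.14, 8.105, 8.003 and 11.6 CPM in VQ-D1 and had a single positive library in VQ-D4, at 0.327 CPM. Of 19 clock genes, 1 was higher in VQ-D1 and 7 in VQ-D4, with a median of -0.52. The repressor Per2 was at 8.88, 6.78, 6.46 and 4.59 CPM in VQ-D1 and 34.2, 27.7, 21.6 and 29.3 CPM in VQ-D4 (log2 difference -2.12 ± 0.24 SE, adjusted p = 3.38e-07), and Nfil3, which opposes the PAR bZIP activators, at 4.69, 2.65, 5.21 and 3.201 CPM in VQ-D1 and 22.4, 32.5, 47.1 and 41.6 CPM in VQ-D4 (log2 difference -3.14 ± 0.30 SE, adjusted p = 3.23e-08). The labels give no hour of collection.

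Smaller or more evenly split lists held single genes with large differences. Of 14 hypoxia genes, 1 was higher in VQ-D1 (2 without VQ-D1 or VQ-D4 replicate 4) and 5 in VQ-D4, 3 without VQ-D4 replicate 3. Egln1, a prolyl hydroxylase that marks HIF for destruction, was at 0.987, 1.82, 1.35 and 2.09 CPM in VQ-D1 and 28.9, 29.1, 14.1 and 20.3 CPM in VQ-D4 (log2 difference -3.78 ± 0.24 SE, adjusted p = 1.87e-11). Vegfa, the angiogenic factor, averaged 109 and 509.9 CPM, a call lost without VQ-D4 replicate 3 (adjusted p = 0.0524). Of 19 heat shock chaperones, 3 were higher in VQ-D1 and 6 in VQ-D4, and Hsph1 was at 64.9, 97.8, 84.7 and 111 CPM in VQ-D1 and 17.6, 17.7, 23.5 and 14.8 CPM in VQ-D4 (log2 difference 2.27 ± 0.22 SE, adjusted p = 1.27e-07). Sod1, the cytosolic superoxide dismutase, was at 79.2, 73.9, 67.5 and 84.1 CPM in VQ-D1 and 21.9, 23.1, 18.97 and 11.3 CPM in VQ-D4 (log2 difference 2.08 ± 0.22 SE, adjusted p = 1.88e-07). Both Hsph1 and Sod1 were higher in all VQ-D1 libraries. Of 34 proteasome genes, 8 were higher in VQ-D1 and 4 in VQ-D4, 2 without VQ-D4 replicate 1. Wnt pathway genes were called for 6 of 20 in VQ-D1 and 4 in VQ-D4, among them the receptor gene Fzd8 at 0.74, 0, 0.0964 and 0 CPM in VQ-D1 and 14.1, 13.1, 6.21 and 8.71 CPM in VQ-D4. Of 31 cytokine and receptor genes, 3 were higher in VQ-D1 and 6 in VQ-D4, 3 without VQ-D4 replicate 3, and Csf2ra, the alpha chain of the GM-CSF receptor, averaged 5.14 and 39.1 CPM. Lmo2, a cofactor of early blood cells, was at 5.43, 11.4, 8.58 and 7.098 CPM in VQ-D1 and 58.002, 43.6, 43.8 and 43.9 CPM in VQ-D4 (log2 difference -2.84 ± 0.34 SE, adjusted p = 2.07e-06).

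**Figure D4:**
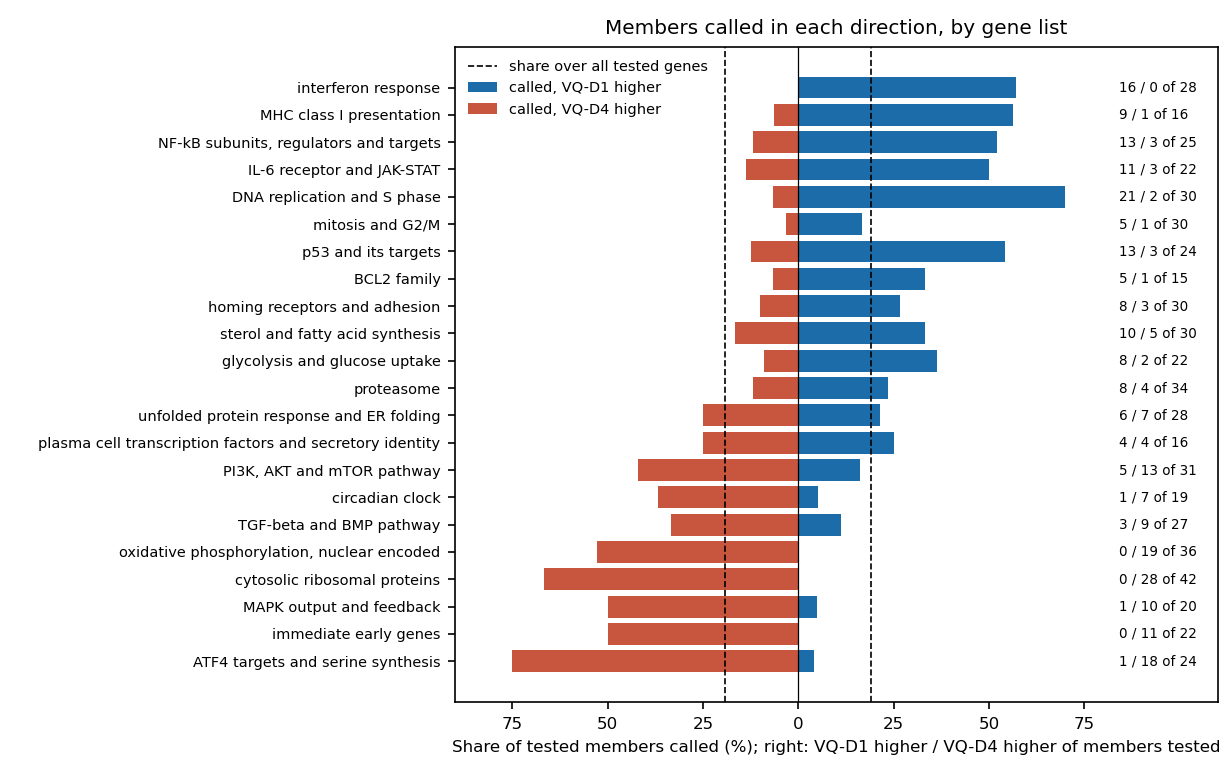
Share of tested members called higher in VQ-D1 (blue, to the right) and in VQ-D4 (red, to the left) for a selection of the gene lists. The numbers are at the right edge, and dashed lines mark the shares over all tested genes, 19% and 19.3%. Among the lists past the right line are interferon, class I, NF-kB, JAK-STAT, replication, p53, glycolysis, BCL2 family and sterol genes. Among those past the left line are ATF4, immediate early, MAPK, ribosomal, oxidative phosphorylation, PI3K, clock and TGF-beta genes.

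Differences were not spread evenly over the genome. The median log2 difference was -0.71 for 731 tested genes of chromosome 8 and -0.52 for 545 genes of chromosome 15, and lay between -0.02 and 0.24 on the other autosomes and the X chromosome. On chromosome 8, 396 genes (54.2%) were higher in VQ-D4 and 27 in VQ-D1, and on chromosome 15 264 (48.4%) and 42. In marrow and spleen alone the medians were -0.69 and -0.54. As folds of the medians, VQ-D4 was 1.64 times VQ-D1 on chromosome 8 and 1.44 times on chromosome 15. In windows of 20 Mb with at least 20 tested genes, the 7 windows of chromosome 8 had medians from -0.92 to -0.50 and the 6 of chromosome 15 from -0.63 to -0.44. The other windows lay between -0.38 and 0.47. The shift thus ran along the whole length of both chromosomes.

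Levels against control plasma cells placed each line. Per library, the median log2 level of genes with at least 10 CPM was taken minus the control mean and centred on the library's own median over genes. On chromosome 8, VQ-D1 libraries lay between -0.825 and -0.768 (mean -0.796, 0.576-fold) and VQ-D4 libraries between -0.23 and 0.122 (mean -0.023). On chromosome 15, VQ-D1 libraries lay between 0.0965 and 0.13 and VQ-D4 libraries between 0.594 and 0.661 (mean 0.629, 1.55-fold). On chromosome 5 both lines were low, VQ-D1 between -0.908 and -0.849 (0.546-fold) and VQ-D4 between -0.92 and -0.898 (0.532-fold). VQ-D1 was thus low on chromosome 8, VQ-D4 high on chromosome 15, and both low on chromosome 5, in every one of their libraries. The low level on chromosome 8 was not particular to VQ-D1. Libraries of t-VK12653 lay there between -0.774 and -0.717 (mean -0.753, 0.5935-fold), and VQ-D2 and VQ-D5 had means of 0.033 and 0.0523. These are RNA levels, and DNA copy number was not measured.

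**Figure D5:**
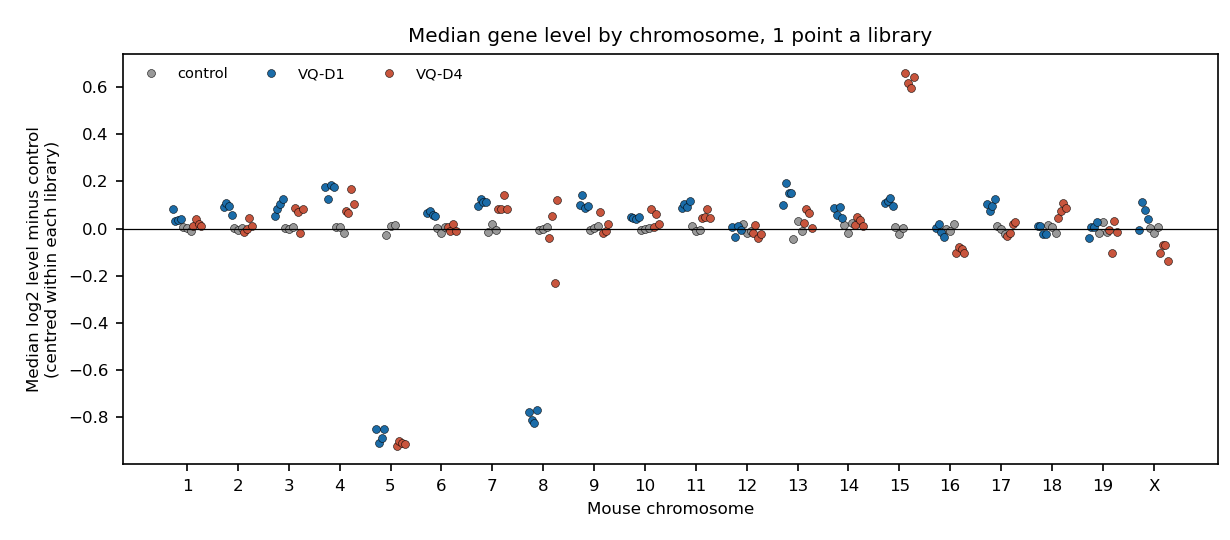
Median log2 gene level of each library minus the control mean, centred within the library, by mouse chromosome, with 1 point a library (grey control, blue VQ-D1, red VQ-D4). Chromosome 5 is low in both lines, chromosome 8 in the 4 VQ-D1 libraries (mean -0.796), and chromosome 15 is high in the 4 VQ-D4 libraries (mean 0.629).

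Chromosomes 8 and 15 hold 1276 of the 13915 tested genes with a known chromosome (9.17%) and 660 of the genes higher in VQ-D4 (24.5%). Away from them, 2572 genes were higher in VQ-D1 and 2029 in VQ-D4, with a median of 0.09. Of the genes higher in VQ-D4 that are described above, Calr, Cox4i1, Cyld, Dusp4, Egln1, Herpud1, Insr, Jak3, Jund, Nod2 and Slc7a5 lie on chromosome 8, and Atf4, Deptor, Fkbp11, Ly6e, Ly6k, Myc, Rictor, Rpl8, Srebf2, Tnfrsf13c and Zhx2 on chromosome 15. Ly6a, Ly6d, Mfng and Zfpm2 lie on chromosome 15 and were higher in VQ-D1. The list counts outside these chromosomes were 16 of 22 for ATF4 targets, 7 of 17 for immediate early genes, 23 of 37 for ribosomal proteins and 16 of 33 for oxidative phosphorylation, all higher in VQ-D4. Their medians there were -1.08, -2.10, -0.53 and -0.26, beside 0.09 for all genes there. For interferon genes, 15 of 27 were higher in VQ-D1 there, with a median of 1.56. The part of chromosome dosage in single genes was not tested.

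Markers of other cells moved with the lines in places. Of 17 neutrophil and granulocyte genes, 11 were higher in VQ-D1 and 0 in VQ-D4, and 0 were called without the VQ-D4 marrow library and 7 without VQ-D1 replicate 1. Their summed level was 1245, 23.2, 362 and 170 CPM in VQ-D1 and 77.9, 15.9, 6.54 and 7.74 CPM in VQ-D4, highest in VQ-D1 replicate 1. Monocyte and macrophage markers summed to 137 to 195 CPM in VQ-D1 and 68.4 to 152 CPM in VQ-D4, with 5 of 12 higher in VQ-D1, 1 without the VQ-D4 marrow library, 2 without VQ-D1 replicate 1 and 3 without VQ-D4 replicate 3. T and NK cell markers summed to 37.2 to 39.8 and 20.3 to 34.7 CPM. Endothelial and stromal markers summed to 386, 324, 132 and 125 CPM in VQ-D1 and 50.7, 747, 30.1 and 34.2 CPM in VQ-D4. Pecam1, which encodes CD31 and is also made by plasma cells, was at 345, 319, 119 and 119.6 CPM in VQ-D1 and 18.5, 9.39, 12.4 and 19.99 CPM in VQ-D4 and made up most of the VQ-D1 sum. Hepatocyte markers reached 55.3 CPM in the liver library. The part of other cells in the differences above was not tested.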

How the data were processed

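RNA of sorted cells was made into libraries with a SMARTer stranded total RNA pico kit, per the labels' protocols. The submitters' processing notes name STAR, featureCounts and DESeq2, without versions, and the builds GRCm38 and mm10 (annotation and strand setting not given in the sources used here). In the deposited tables, columns hold, per the file headers, raw read counts per gene symbol, made by the authors, beside FPKM and TPM values. The counts were used for every result, and the authors' FPKM and TPM values for none.

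Counts of all 23 libraries were filtered with filterByExpr (minimum 10 reads, total 15), scaled by TMM and fitted in edgeR 4.0.16 (R 4.3.3, limma 3.58.1) with group and tissue terms. The contrast VQ-D1 minus VQ-D4 was tested with the robust quasi-likelihood F-test and Benjamini-Hochberg adjustment over all tested genes, with calls at an adjusted p under 0.05. The 6 bone marrow and spleen libraries of the lines were fitted alone with the same terms. Differences within a tissue, and spleen minus marrow, came from a fit with 1 coefficient for each group and tissue. The script was tested on simulated data. Library totals are given in the report. The floor of 3 reads and the 95% intervals of ratios cover counting error only, since PCR copies of 1 molecule cannot be told apart in these counts.

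Gene lists and members were chosen with earlier results of these data known, and lists are described by counts and medians with no test. Named genes were Nras and Myc, then the 12 highest and 12 lowest log2 differences among genes called in both fits without overlap and with at least 10 CPM in the higher line. To these came the 6 genes per direction with the largest difference in mean CPM, and up to 6 members of each list with the smallest p. Other list members were named for their level, for not passing or for being at 0, and the rankings skipped predicted genes, small RNA genes and sex-linked genes. Promoter windows and coordinates come from RefSeq tables on GRCm38.p6, matched by symbol. Alternatives were DESeq2 1.42.0 as test and as source of size factors, other low-count filters, scaling without abundant non-coding RNA, other sets of libraries, no tissue term, a replicate block, each library left out, sums per recipient number and limma voom with recipient as a random block. Some genes that this rule gave are not reported here.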

Additional observations from a re-analysis of the deposited data

Results flagged for a closer look

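In 328 sets of 4 libraries, 32 (9.76%) had 1 library apart from the other 3 of its line, by more than Dixon's 95% critical value for the gap over the range. Chance alone gives about 1 such set in 20.

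In VQ-D1, replicate 1 stood apart from its line in immediate early genes. It was highest for Fos (722 CPM), Jun (1196 CPM) and Egr1 (117 CPM), for the summed dissociation and stress genes (3792 CPM) and for Cdkn2c (3.70 CPM). Replicate 2 was lowest for Btg2 (338 CPM). Replicate 3 was highest for Cdkn1a (72.8 CPM) and Igj (828 CPM). Replicate 4 was highest for Itga4 (1146 CPM) and Abcg2 (11.6 CPM) and lowest for Pik3cg (208 CPM).

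In VQ-D4, the marrow library, replicate 1, was highest for Lmo2 (58.0 CPM) and the summed neutrophil markers (77.9 CPM). The liver library, replicate 2, was highest for Herpud1 (1589.8 CPM), Slc2a1 (124 CPM), Rasgrp1 (30.5 CPM), Etv1 (23.4 CPM) and Ptprc (10.01 CPM), and lowest for Icam2 (16.6 CPM). Its summed hepatocyte markers (55.3 CPM) and endothelial and stromal markers (747 CPM) were also highest. The spleen library, replicate 3, was highest for Btg2 (1593 CPM), H2-K1 (1158 CPM), Prdm1 (1006 CPM), Epha2 (52.3 CPM), Stat5b (27.8 CPM), Irf7 (23.5 CPM) and summed erythroid markers (29.4 CPM). The lymph node library, replicate 4, was highest for Deptor (116 CPM), Rasa4 (8.06 CPM) and Eda2r (2.26 CPM) and lowest for Dnmt3a (22.3 CPM).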

How the results depend on the processing

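The count of genes called between the lines, 5355 in the report, lay between 3992 and 5827 under the 21 alternatives, within 1.5 times of it, and the share higher in VQ-D1 lay between 46.1% and 50.9%. The limits of the count were the fit without the VQ-D4 marrow library and the fit with the group term alone. Those of the share were limma voom with recipient as a random block and the fit with no low-count filter. DESeq2 called 5382 genes, sums per recipient number 4142, and a fit without chromosomes 8 and 15, added after seeing the data, 4530. In marrow and spleen alone, leaving out 1 library gave 2835 to 4533 calls, 1309 to 2168 higher in VQ-D1 and 1526 to 2365 in VQ-D4, each lowest without the VQ-D4 marrow library. The difference between spleen and marrow was called for 0 genes under 3 of 4 alternatives and for 99 with no low-count filter, and the cause was not tested. That filter setting also called Fos and Jun, whose libraries overlap. The sums per recipient number were fitted without a tissue term, and the liver library formed a VQ-D4 sum of its own. Changes under this setting thus do not isolate recipients. With sums per recipient number, list counts higher in VQ-D1 moved from 6 to 2 for the unfolded protein response, from 4 to 2 for plasma cell factors, from 5 to 3 for the BCL2 family and the PI3K list and from 1 to 0 for clock genes. Those higher in VQ-D4 moved from 6 to 3 for heat shock, from 5 to 3 for cyclin D genes, from 5 to 1 for ribosome biogenesis, from 4 to 2 for the proteasome, from 2 to 0 for replication, from 1 to 2 for the BCL2 family and from 1 to 0 for mitosis and both MHC classes. Without chromosomes 8 and 15, which removes members, counts in VQ-D1 moved from 6 to 2 for the unfolded protein response, from 4 to 2 for plasma cell factors and from 5 to 3 for PRC2 and PI3K genes. Counts in VQ-D4 moved from 13 to 8 for PI3K, from 5 to 1 for sterol genes, from 5 to 3 for hypoxia, from 4 to 2 for surface targets, from 3 to 1 for JAK-STAT, from 2 to 1 for the MYC network, glycolysis and replication, and from 1 to 0 for class I and drug transporters.

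Replicate numbers are shared by the labels of both lines. Deviations of same-numbered libraries correlated at 0.134, 0.0117, -0.0332 and 0.0556, and 2 of 4 were most alike to their own number. Only replicate 1 had the same tissue in both lines, so these values cannot show whether the libraries share more than a number. With the replicate block 5173 genes were called.

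Of 162 called genes named in the text, 145 kept direction and call under every alternative that gave a value, 17 lost the call under at least 1, and 0 reversed. Beside the losses given in the report, Calr, Cdkn2a, Cxcr4, Ly6e, Mcl1, Phgdh and Sel1l lost it with sums per recipient number. Bcl2, Egr1, Pecam1, Prdm1, Tnfrsf17 and Vegfa lost it with the 8 libraries alone. There the tissue term absorbs the lymph node library as well as the liver library. The log2 differences of that fit thus rest on the marrow and spleen libraries, and it is no separate check beside the fit of those alone. Among genes that did not pass, the log2 difference of Fos lay between -2.81 and 0.61 on leaving out 1 library, positive without VQ-D4 replicate 3. Nras was called with the group term alone (adjusted p = 0.0395). Dusp6 was called, higher in VQ-D1, by DESeq2 (adjusted p = 0.0315), with the group term alone (adjusted p = 0.0161) and with no low-count filter. Jun was called, higher in VQ-D4, by DESeq2 (adjusted p = 0.014), with the stricter low-count filter (adjusted p = 0.0434) and with the group term alone (adjusted p = 0.0304). Sdc1 and Psat1 were called, higher in VQ-D4, with the 8 libraries alone and with no low-count filter. Genes at a few reads in a line, such as Oas3, are limited by depth.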
